A study of Mus musculus with 4 samples.

Results

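Interferon-stimulated genes are the genes a cell transcribes when it responds to interferon, and 36 of them were followed in group 2 innate lymphoid cells (ILC2s) of the mouse lung. They were picked by name as interferon-induced effectors, nucleic acid sensors and interferon regulatory factors, by a rule that uses no measured value, although earlier results of these data were known when the list was drawn up. Of the 36 genes, 35 had a row among the 22554 genes of the count table, and Oas2 was not analysed here. All cells were sorted lung ILC2s of BALB/c mice with a labelled age of 6 weeks, and all were cultured with IL-2, IL-7 and IL-33. The 2 vehicle libraries, labelled Control, received no drug, and the 2 other libraries came from ILC2s cultured with compound 5D, a small molecule that blocks the Orai calcium channels. The labels give no dose of 5D, and there was no culture with added interferon and none without IL-33. Nothing states whether the 2 libraries of a group came from separate animals or cultures, so the p-values measure the spread between these libraries, which may be technical.

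Type I and type III interferons act through receptors that activate the kinases JAK1 and TYK2, and these lead to a transcription factor complex with IRF9 that binds the interferon-stimulated response element (ISRE) in the promoters of many such genes. Interferon gamma acts mainly at gamma-activated sequences (GAS). In ILC2s, type I interferon and interferon gamma are known to restrain proliferation and type 2 cytokine production.

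The clustered membrane protein genes Ifitm1, Ifitm2 and Ifitm3 were lower in both 5D libraries than in both vehicle libraries, at 0.763, 0.696 and 0.710 times the vehicle level, and no other member with a mean of at least 20 counts was past an unadjusted p of 0.05. Of the 35 genes, 34 passed the filter on low counts and entered the quasi-likelihood test of edgeR. At an adjusted p under 0.05, 0 of the 34 were higher and 0 were lower, where 0.0283% and 0.068% of all 17651 genes tested were. At an unadjusted p under 0.05, 1 member was higher (Mx1) and 4 were lower (Ifitm1, Ifitm2, Ifitm3 and Oasl2), beside 3.5% of all genes higher and 3.84% lower. DESeq2's Wald test called 0 members higher and 1 lower (Ifitm3) at an adjusted p under 0.05, beside 16 and 42 genes in all. It gave no adjusted p for Ifitm1 and Ifitm2, so its counts are not out of all 34 members or all 17651 genes. Its adjustment was only over the genes that it gave one. With limma-voom, 0 members were called in each direction, beside 9 and 23 of all genes. The members past an unadjusted p depended on the libraries, with 4 higher without vehicle library 1 (Mx1, Gbp2, Parp9 and Dtx3l), 2 without vehicle library 2 (Ifih1 and Dhx58), 2 without 5D library 1 (Mx1 and Parp9) and 0 without 5D library 2. Over all genes, 1031 of 16935, 625 of 16968, 465 of 16805 and 389 of 16738 were higher in the same fits. The median log2 fold change, always 5D minus vehicle, was 0.07 over the 34 members and -0.002 over all genes tested.

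Each member's level was taken as normalized CPM, the gene's counts relative to the library's total after upper quartile scaling. Both 5D libraries lay above both vehicle libraries for 5 of the 34 tested members and below for 5, and the groups overlapped for 24. Over all genes tested, the shares above and below were 18.7% and 18.8%, so the members' counts of separated genes were not above the background in either direction. Among the 29 members with a mean of at least 20 counts, log2 fold changes ran from -0.64 to 0.46. Of these, 20 lay above 0 and 9 below, with a median of 0.08. Without the Ifitm genes 20 of the other 26 lay above 0 and 6 below, with a median of 0.09. Of these 26, 0 were past an unadjusted p of 0.05 in edgeR. The Ifitm genes were set apart because they were lower in these data, which by itself raises the share above 0. The share of all genes above 0 is not given here. The median over all tested members was -0.03 without 5D library 2 and 0.15 without 5D library 1.

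**Figure D1:**
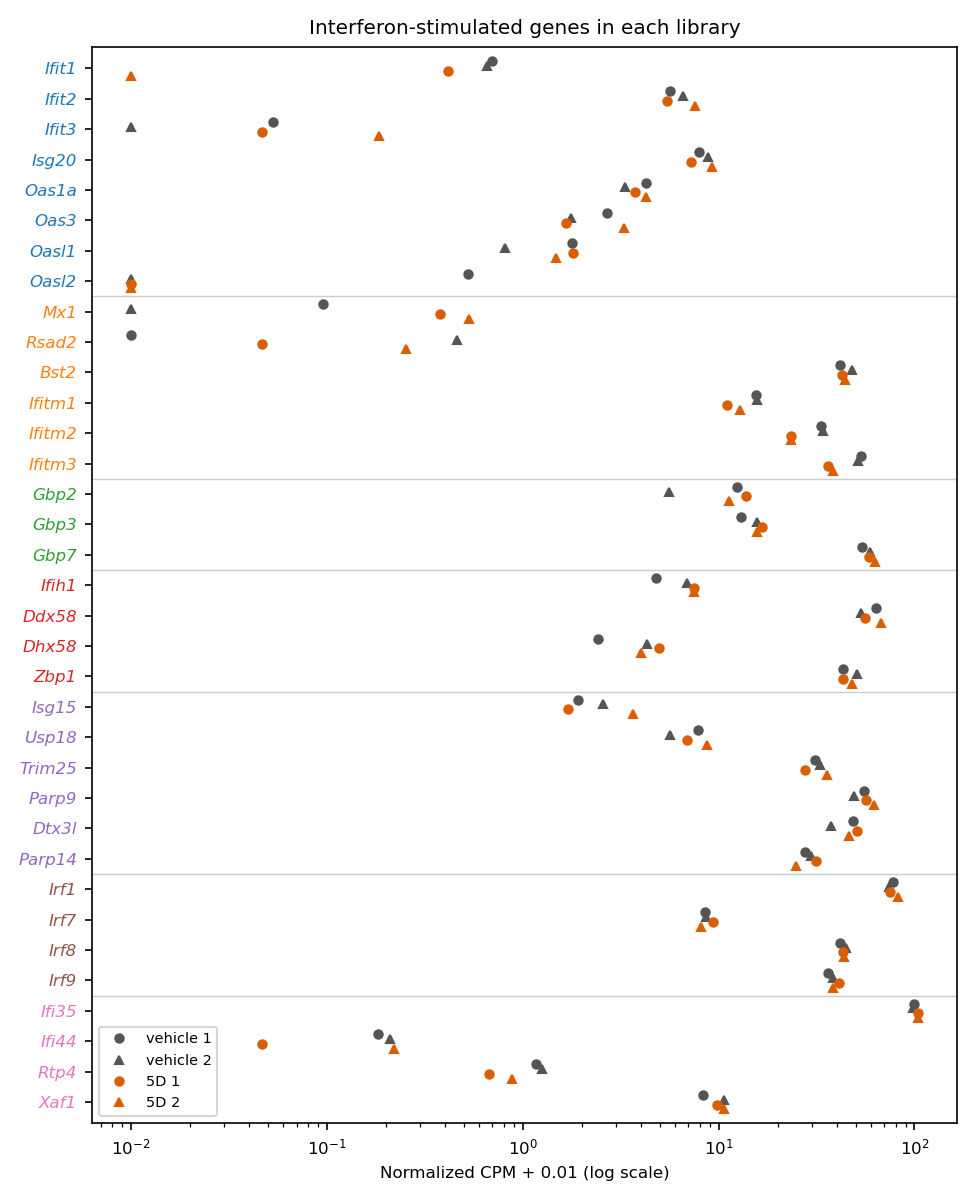
Normalized CPM (plus 0.01, log scale) of the 35 interferon-stimulated genes with a row, in each of the 4 libraries, with gray marks for vehicle, orange for 5D, circles for library 1 and triangles for library 2. Lines separate the roles described in the text, gene names are coloured by role, and marks at the left edge stand for 0 counts; the orange marks of Ifitm1, Ifitm2 and Ifitm3 sit left of the gray ones.

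Summed over all genes, vehicle libraries 1 and 2 held 23239797 and 20096541 counts and 5D libraries 1 and 2 held 26912676 and 28697229. What edgeR names the biological coefficient of variation was 8.51%. It measures the spread between these libraries beyond counting error, which may be technical. ILC2 markers were present in every library, with a summed level over all 12 listed markers of 11850 to 11950 normalized CPM with vehicle and 11000 to 11490 with 5D. Summed markers of other cells were far lower. They came to 33.4 to 34.6 and 34.3 to 35.7 for T cells (7 of 9 with a row, Cd4 at 0), 46.0 to 50.3 and 53.9 to 70.7 for NK cells or ILC1s (5 of 6), and 14.7 to 19.5 and 13.6 to 15.4 for B cells (3 of 6). For macrophages, monocytes or dendritic cells (7 of 9) they were 4.52 to 7.995 and 5.49 to 5.56, for granulocytes or mast cells (6 of 8, with 1 at 0) 2.40 to 5.90 and 5.01 to 5.18, and for epithelium, endothelium or fibroblasts (7 of 8, with 3 at 0) 46.8 to 49.9 and 43.5 to 45.5. The B cell sum was mostly Cd79b (13.4 to 19.1 over the libraries), with Cd79a at 0.14 to 0.25. The T cell sum was mostly Cd3g (21.6 to 24.6), with Cd3d at 0.25 to 0.52. The sums of the ILC2 list and of the epithelial list were lower with 5D in both libraries. That of the NK cell list was higher. Genes within each of these lists went both ways. The NK cell sum was mostly Gzma (log2 fold change 0.397), while Prf1 was at -0.744. In the epithelial list Pecam1 was at -0.339 and Epcam at 0.0469. Of the 12 ILC2 markers, 8 lay below 0, among them Il2ra (-0.235) and Il5 (-0.0843). These 2 had the highest levels of the list, at means of 2144 and 4731 normalized CPM with vehicle. The 4 above 0 were Il1rl1 (0.122), Rora (0.101), Il7r (0.00926) and Gata3 (0.0079). Whether the share of cell types differed was not tested, nor was the part of these sums in the levels of the members. In RNA from a pool of cells, fewer cells that carry a transcript and less of it per cell cannot be told apart.

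The Ifitm genes encode small membrane proteins that block the entry of enveloped viruses, with Ifitm3 in endosomes and Ifitm1 mainly at the cell surface. Ifitm3 was at 53.2 and 51.6 normalized CPM with vehicle and at 36.1 and 38.4 with 5D, from 1236, 1033, 979 and 1097 counts. The groups did not overlap, with means of 52.4 ± 1.13 and 37.2 ± 1.62 (SD, n = 2 each) and a log2 fold change of -0.49 (standard error, SE, 0.09, unadjusted p = 0.000192 and adjusted p = 0.113 in edgeR). Ifitm2 was at 33.4 and 34.1 with vehicle and at 23.4 and 23.5 with 5D, from 776, 682, 635 and 673 counts. Both libraries of each group lay close together, and the log2 fold change of Ifitm2 was -0.52 (SE 0.11, unadjusted p = 0.000415 and adjusted p = 0.171 in edgeR). Ifitm1 was at 15.5 and 15.7 with vehicle and at 11.02 and 12.8 with 5D, from 360, 315, 299 and 366 counts. Its log2 fold change was -0.39 (SE 0.15, unadjusted p = 0.0245 and adjusted p = 0.598 in edgeR), and its 5D libraries stood further apart than its vehicle libraries. By unadjusted p, Ifitm3 was in place 30 and Ifitm2 in place 42 of the 17651 genes.

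The direction of the 3 genes was the same in each of the 13 alternative fits, and Ifitm2 and Ifitm3 were past an unadjusted p of 0.05 in each of them. Ifitm1 was not past it with DESeq2, without vehicle library 2 or without 5D library 1, and whether Ifitm3 and Ifitm2 passed after adjustment depended on the fit. The adjusted p of Ifitm3 was 0.0233 without vehicle library 1, 0.00972 without vehicle library 2, 0.00387 with DESeq2 and 0.0325 without a filter on low counts, and ran from 0.00387 to 0.322 over all alternatives. That of Ifitm2 was 0.0291 without vehicle library 1 and ran from 0.0291 to 0.515, and that of Ifitm1 ran from 0.432 to 0.855, with none given by DESeq2 for Ifitm1 and Ifitm2. Leaving out any 1 library kept the log2 fold change of Ifitm3 between -0.54 and -0.46, that of Ifitm2 between -0.54 and -0.51 and that of Ifitm1 between -0.50 and -0.29.

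The 3 genes lie in one cluster on chromosome 7 of mm10, in the GENCODE M21 annotation. Ifitm2 (ENSMUSG00000060591.9) spans chr7:140954837-140955987 on the minus strand, Ifitm1 (ENSMUSG00000025491.14) spans chr7:140967221-140969825 on the plus strand, and Ifitm3 (ENSMUSG00000025492.6) spans chr7:141009586-141010770 on the minus strand. The gene model Gm7514 lies between Ifitm1 and Ifitm3 and had 3, 13, 7 and 18 counts, in the order vehicle 1, vehicle 2, 5D 1 and 5D 2. It and the nearest tested protein-coding genes outside the cluster were looked up after their values were seen. Pgghg, the nearest on the side of Ifitm2, was at 32.1 and 37.5 normalized CPM with vehicle and 31.1 and 27.0 with 5D, a log2 fold change of -0.26 (SE 0.12, unadjusted p = 0.0511 and adjusted p = 0.678 in edgeR). B4galnt4, the nearest on the side of Ifitm3, had overlapping groups and a log2 fold change of -0.04 (adjusted p = 0.982 in edgeR). Of the further Ifitm family members, also looked up afterwards, Ifitm5 had 1, 1, 1 and 2 counts, Ifitm6 had 4, 0, 0 and 0, and Ifitm10 had 20, 12, 17 and 19, in the same order. Ifitm5 lies between Pgghg and Ifitm2, and Ifitm6 lies between Ifitm3 and B4galnt4.

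**Figure D2:**
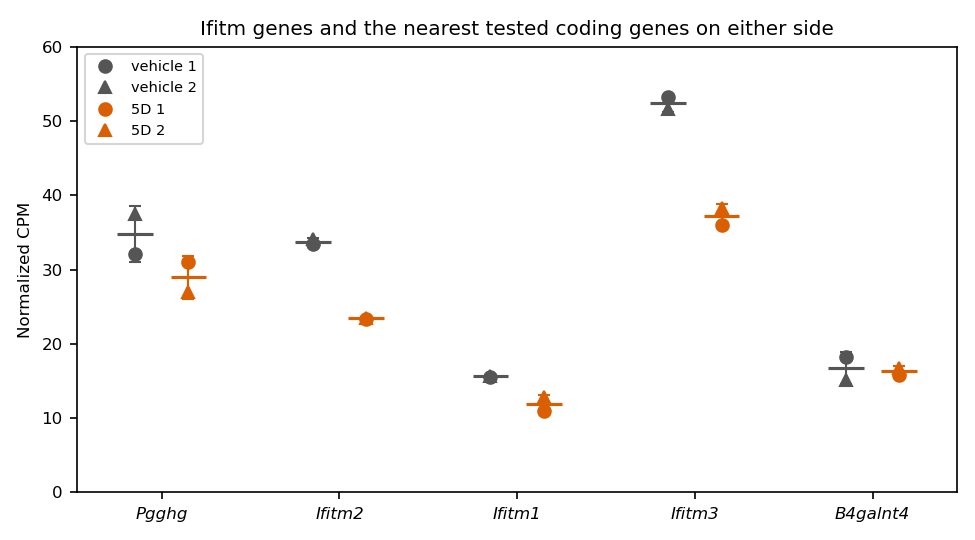
Normalized CPM of Ifitm2, Ifitm1 and Ifitm3 and of the nearest tested coding genes on either side, in chromosome order, by library (gray vehicle, orange 5D, circle library 1, triangle library 2); horizontal bars are means and vertical bars 1 SD (n = 2). The groups are apart for the Ifitm genes and for Pgghg, and overlap for B4galnt4.

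Some reads of the Ifitm genes could belong to close copies. Ifitm2 shares 268 nt of exon on the same strand, 40.9% of its exon length, with the gene model Gm45717, which had 0, 0, 2 and 0 counts. It also has near-identical stretches with Gm11951 (432 nt, 97.0% identity) and Gm8865 (429 nt, 95.6%), which were not analysed here. Ifitm1 has one with Gm7676 (319 nt, 97.5%), which had 2, 1, 1 and 4 counts. Between Ifitm genes themselves no stretch of at least 150 nt reached 95% identity.

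Sequences at the RefSeq starts of the 3 genes are shown because these genes were lower together. A further reason is that the ISRE is the element through which type I interferon acts on many members. Each is the 100 bases before the first GENCODE M21 exon at the RefSeq start, read on the gene's strand from RefSeq's GRCm38.p6 promoters (the assembly of mm10), with exact matches to the ISRE core GAAANNGAAA on either strand in capitals.
Ifitm1, chr7:140967928-140968027, plus strand: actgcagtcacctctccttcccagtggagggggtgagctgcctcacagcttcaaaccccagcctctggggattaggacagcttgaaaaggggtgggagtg
Ifitm2, chr7:140955988-140956087, minus strand: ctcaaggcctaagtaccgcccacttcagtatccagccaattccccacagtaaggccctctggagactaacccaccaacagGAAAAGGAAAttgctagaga
Ifitm3, chr7:141010771-141010870, minus strand: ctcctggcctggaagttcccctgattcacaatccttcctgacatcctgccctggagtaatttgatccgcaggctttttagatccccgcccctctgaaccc
Only the Ifitm2 stretch of the 3 holds a match, 46 bases before its RefSeq start. Ifitm3 has 2 matches, at positions 3 and 20 counted from its RefSeq start, and the 30 bases that hold both are shown on the same strand.
Ifitm3, chr7:141010716-141010745, minus strand: cagGAAAAGGAAActtctgaGAAACCGAAA
Ifitm1 had 0 matches in the whole RefSeq window of 300 bases (250 before and 50 after the start). That window and the stretch shown lie inside the GENCODE M21 span of Ifitm1, which starts at chr7:140967221. The bases before that annotated start were not searched. The GAS core TTCNNNGAA is not marked in these stretches. The Ifitm3 window holds 1 match to it, within the 30 bases shown for that gene. The windows of Ifitm1 and Ifitm2 hold 0.

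Over all members, 28 had a RefSeq promoter window, and the ISRE core was found in 14 of them (50%), against 1079 of 27025 genes (3.99%) with a window. The GAS core TTCNNNGAA, which reads the same on both strands, was found in 9 of 28 (32.1%), against 2582 genes (9.55%). Isg15, Ifit1, Gbp2 and Bst2 are shown as members whose match lies before the RefSeq start. Isg15 is shown because its match has the same 10 letters as that of Ifitm2 and the first of Ifitm3. Each stretch of 30 bases is on the gene's strand, with 1 match in capitals, which reads TTTC, 2 free bases, TTTC where the core is on the other strand.
Isg15, chr4:156200877-156200906, minus strand: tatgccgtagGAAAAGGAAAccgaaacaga
Ifit1, chr19:34640794-34640823, plus strand: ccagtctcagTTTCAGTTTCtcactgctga
Gbp2, chr3:142620594-142620623, plus strand: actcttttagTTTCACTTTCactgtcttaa
Bst2, chr8:71537577-71537606, minus strand: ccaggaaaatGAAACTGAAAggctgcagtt
In Isg15 and Bst2 the core occurs at overlapping positions, 3 in Isg15 and 2 in Bst2. These letters are a description of the windows, and factor binding was not measured.

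The other membrane and virus assembly effectors did not share the Ifitm pattern. Bst2, also called tetherin, which holds budding virus particles at the cell surface, was at 41.6 and 47.9 normalized CPM with vehicle and 42.8 and 44.2 with 5D. The 5D libraries lay between the vehicle libraries, and the log2 fold change was -0.04 (SE 0.10, edgeR adjusted p = 0.973). Mx1, a dynamin-like GTPase against influenza virus that is defective in many inbred mouse strains, was near the limit of detection, with 2 and 0 counts under vehicle and 10 and 15 under 5D. Scaled for library size, the 25 counts with 5D were 9.70 times the 2 with vehicle, with an exact 95% interval of 2.42 to 84.5 that covers counting error only (unadjusted p = 0.0241 and adjusted p = 0.598 in edgeR). A stretch of 843 nt is 95.3% identical to Mx2, whose counts were 8, 0, 0 and 0, so the reads could be split between them. Rsad2, which encodes viperin, had 0 and 9 counts with vehicle and 1 and 7 with 5D, and its groups overlapped.

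The effectors against viral RNA and protein synthesis had means of 0.06 to 8.31 normalized CPM. Ifit2 (6.32), whose protein binds viral RNA and the translation machinery, Isg20 (8.31), an RNA exonuclease, and Oas1a (3.89) and Oas3 (2.34), which make the oligoadenylates that switch on RNase L, had overlapping groups. So had Oasl1 (1.46), an OAS-like protein that restrains Irf7 translation. The log2 fold changes of these 5 genes ran from -0.02 to 0.34. Ifit1 had 16 and 13 counts with vehicle and 11 and 0 with 5D, and Ifit3 had 1, 0, 1 and 5 counts and was the member not tested. Oasl2 had 12 counts in vehicle library 1 and 0 in the other 3 libraries (unadjusted p = 0.0299 and adjusted p = 0.621 in edgeR), so its place among the lower genes rests on vehicle library 1, without which it was at 0 throughout. Long near-identical stretches tie Oas1a to Oas1g (1861 nt, 97.6%) and Ifit3 to Ifit3b (1700 nt, 97.8%), and counts of these genes are uncertain.

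Among the interferon-inducible GTPases, Gbp2, which coats vacuoles and bacteria inside infected cells, was at 12.4 and 5.60 normalized CPM with vehicle and 13.7 and 11.3 with 5D, from 288, 112, 372 and 322 counts. Vehicle library 2 was low and the other 3 libraries were near one another, and the log2 fold change was 0.46 (SE 0.28, edgeR adjusted p = 0.789). That value was 0.01 without vehicle library 2 and 1.15 without vehicle library 1, where its adjusted p was 0.00108 against a range of 0.00108 to 0.997 over the alternatives. Gbp3, at 13.0 and 15.6 with vehicle and 16.7 and 15.7 with 5D, had groups that just missed each other (log2 fold change 0.18). Gbp7, at a mean of 58.8, had a log2 fold change of 0.10 with overlapping groups, and 637 nt of its exons overlap the pseudogene Gm43802.

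**Figure D3:**
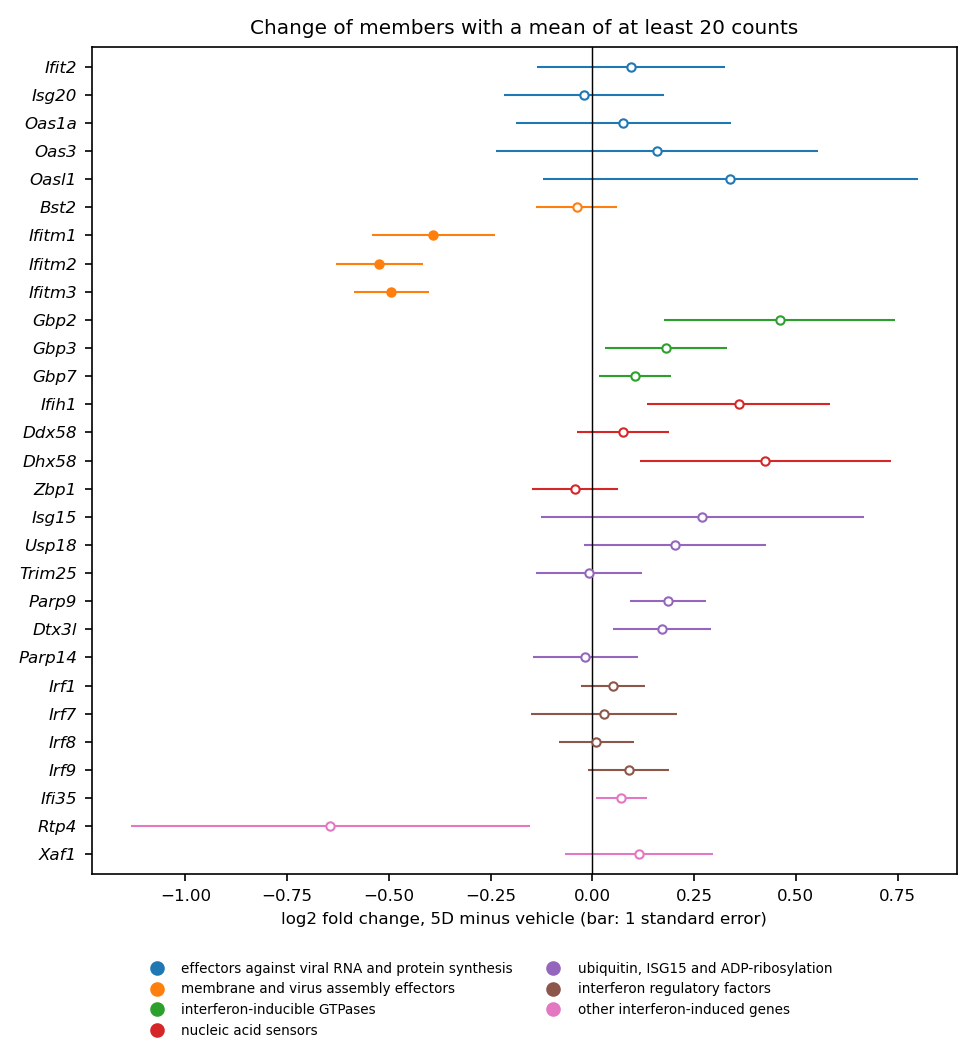
Log2 fold change, 5D minus vehicle, of the 29 members with a mean of at least 20 counts, coloured by role, with bars of 1 standard error; filled points have an unadjusted p under 0.05 in edgeR and open points do not. The filled points are Ifitm1, Ifitm2 and Ifitm3, at -0.39 to -0.52.

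The nucleic acid sensors detect viral RNA and other misplaced nucleic acids and switch on interferon genes. Dhx58, which encodes LGP2, a regulator of the other RNA sensors, was at 2.41 and 4.30 normalized CPM with vehicle and 4.94 and 4.02 with 5D, from 56, 86, 134 and 115 counts. Vehicle library 1 was the low one, the groups overlapped, and the log2 fold change of 0.42 (SE 0.31, edgeR adjusted p = 0.832) was 0.06 without that library and 0.89 without vehicle library 2. Ifih1, which encodes MDA5, a sensor of long double-stranded RNA, was at 4.78 and 6.90 with vehicle and 7.44 and 7.48 with 5D, so that both 5D libraries were above (log2 fold change 0.36, adjusted p = 0.797 in edgeR). Ddx58 (mean 60.1), which encodes RIG-I, and Zbp1 (mean 46.2), a sensor of Z-form nucleic acid that can start cell death, had overlapping groups and log2 fold changes of 0.08 and -0.04.

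Isg15, a ubiquitin-like protein joined to other proteins, had 44, 51, 46 and 104 counts, and 5D library 2 stood above the other 3 libraries. Its log2 fold change was 0.27 (SE 0.40), and 482 nt of it are 95.2% identical to AC151275.1. Usp18, which removes ISG15 and damps the type I interferon receptor (mean 7.28), and Trim25, a ubiquitin ligase in the RIG-I pathway (mean 31.9), had overlapping groups. Parp9 and Dtx3l encode partners in one ADP-ribosylating ubiquitin ligase complex. Parp9 was at 54.9 and 49.1 with vehicle and 56.4 and 61.9 with 5D, just apart (log2 fold change 0.19, adjusted p = 0.717 in edgeR), and Dtx3l was at 48.6, 37.4, 50.6 and 46.4 with overlapping groups (0.17). They are transcribed from opposite strands and share 458 nt of exon, so without strand some reads of one cannot be told from those of the other. Parp14, another ADP-ribosyltransferase (mean 28.3), had a log2 fold change of -0.02.

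The interferon regulatory factors, which bind the ISRE or related elements, had log2 fold changes of 0.01 to 0.09, the narrowest range of the roles, and overlapping groups for 4 of 4. Irf1, an early target of interferon gamma, was at 78.0 and 74.0 normalized CPM with vehicle and 74.7 and 82.7 with 5D, a log2 fold change of 0.05 (SE 0.08, edgeR adjusted p = 0.941). Irf9, a DNA-binding part of the complex at the ISRE, had a mean of 38.5. Irf8, known for its role in myeloid cells, had a mean of 43.4, and Irf7, the amplifier of type I interferon genes, had a mean of 8.65.

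Ifi35, an interferon-induced leucine zipper protein, was at 99.2 and 98.3 normalized CPM with vehicle and 103.8 and 103.7 with 5D. Both 5D libraries were above, by little, with a log2 fold change of 0.07 (SE 0.06, edgeR adjusted p = 0.878). Rtp4, whose protein acts against flaviviruses, had 27 and 25 counts with vehicle and 18 and 25 with 5D, and a log2 fold change of -0.64 (SE 0.49, edgeR adjusted p = 0.843). After scaling, its 5D libraries were below its vehicle libraries. Xaf1, a proapoptotic partner of XIAP (mean 9.85), had overlapping groups, and Ifi44 had 4, 4, 1 and 6 counts. Without strand, reads of Ifi35 cannot be told from those of the antisense gene Gm11626, which overlaps 290 nt (16.8%) of its exons, and the same holds over 141 nt for Dhx58 with Dhx58os and over 135 nt for Irf1 with Gm17334. Rtp4 shares an identical stretch of 296 nt with Gm45338.

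To order the members by level, normalized CPM was divided by the kilobases of exon. Per kilobase, Ifitm3 was highest at a mean of 66.1, followed by Ifi35 at 58.6, Bst2 at 48.9, Ifitm2 at 43.7 and Irf1 at 19.5. The order at the top differed between the groups. Ifitm3 was at 78.5 and 76.1 per kilobase with vehicle, above Ifi35 at 57.4 and 56.9, and at 53.2 and 56.6 with 5D, below Ifi35 at 60.1 and 60.02. Over the 4 libraries the ranges of Ifitm3 and Ifi35 overlapped, those of Ifi35 and Bst2 did not, those of Bst2 (46.1 to 53.0) and Ifitm2 (35.7 to 52.0) overlapped, and Irf1 (18.6 to 20.8) was apart from both neighbours. Zbp1 (12.2 to 14.3), Ifitm1 (10.1 to 14.4) and Parp9 (10.1 to 12.7), next in order, were not apart. At the other end, Oasl2, Ifi44, Ifit3, Rsad2, Mx1 and Ifit1 had mean levels of 0.02 to 0.16 per kilobase.

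**Figure D4:**
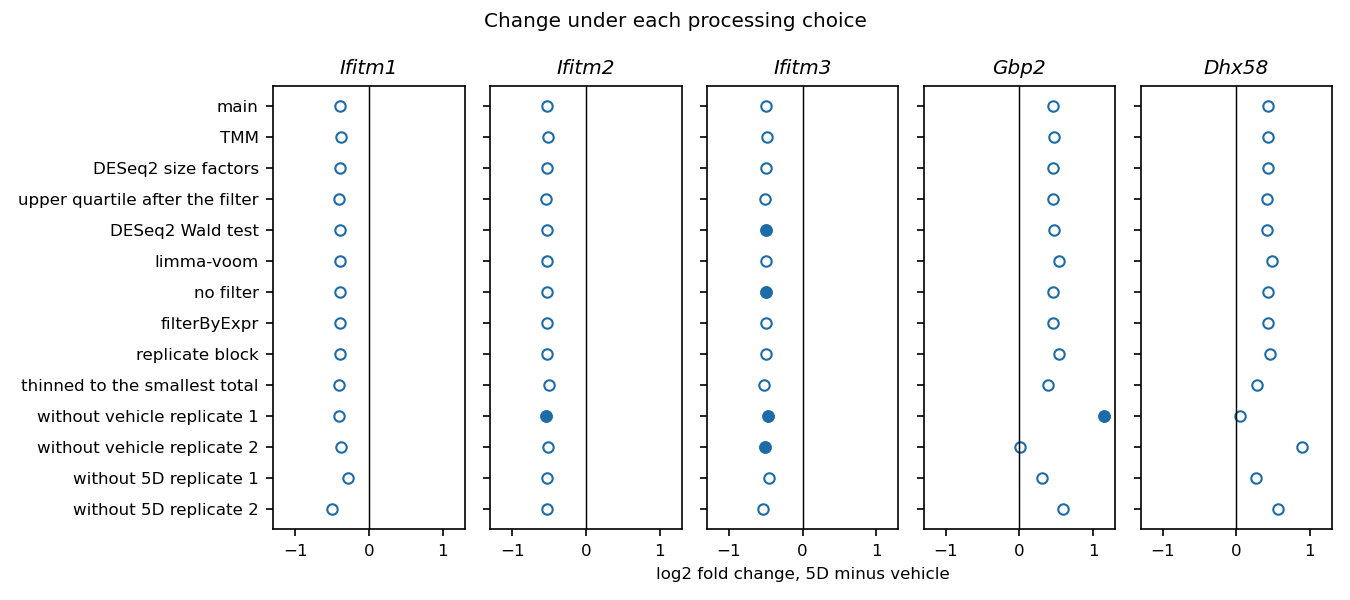
Log2 fold change, 5D minus vehicle, of the Ifitm genes, Gbp2 and Dhx58 in the edgeR fit with upper quartile scaling (main) and under each processing alternative; filled points have an adjusted p under 0.05. Ifitm2 and Ifitm3 stay within -0.46 to -0.54 throughout, whereas Gbp2 ran from 0.01 to 1.15 with the choice of vehicle library.

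The rest of the interferon pathway was read from lists of genes outside the members. Of 21 interferon genes, 1 had a row, Ifng, with 2, 0, 1 and 0 counts, and the others were not analysed here. Of the receptors, JAKs and STATs, 10 were tested, 0 passed an adjusted and 0 an unadjusted p of 0.05 in edgeR, and the median log2 fold change was 0.04. Of 12 tested genes for nucleic acid sensing upstream of interferon, 1 was higher and 3 lower at an unadjusted p under 0.05, where 3.5% and 3.84% of all genes were, and the median was -0.04. The 3 with the smallest p were Tmem173, which encodes STING (-0.18), Traf6, a ubiquitin ligase of Toll-like receptor signalling (-0.28), and Tbk1, the kinase that activates IRF3 (0.15).

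Of 17 genes that restrain interferon signalling, 0 were higher and 1 lower at the adjusted threshold, beside 0.0283% and 0.068% of all genes. Socs3, an inhibitor of JAK signalling by cytokine receptors, was at 171.7 and 185.2 normalized CPM with vehicle and at 107.1 and 109.8 with 5D (log2 fold change -0.72, SE 0.06, adjusted p = 0.00178 in edgeR). Socs1, the family member that acts on interferon receptors, had a log2 fold change of 0.03, and the median of the list was 0.02. Among 16 tested interferon-inducible GTPases outside the members, Tgtp2 was higher (0.23) and Ifi47 lower (-0.14) at an unadjusted p under 0.05. Of all genes, 3.5% were higher and 3.84% lower at that threshold, and the median of these GTPases was 0.04. Tgtp2 is 99.8% identical to Tgtp1 over 2811 nt, and Tgtp1 had a log2 fold change of 0.13. Of 7 tested PYHIN genes, whose proteins bind DNA, 1 was higher and 0 lower, beside the same 3.5% and 3.84% of all genes. The higher one was Ifi214, with 1, 1, 16 and 12 counts and 96.9% identity to Ifi209 over 1946 nt. The median of the PYHIN genes was 0.10.

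Of 49 tested further interferon-stimulated genes, 5 were higher and 1 lower at an unadjusted p under 0.05, beside the same 3.5% and 3.84% of all genes, and the median was 0.04. Those with the smallest p were Ddx60, a helicase that promotes RIG-I signalling (0.76, at 2.84 and 3.15 normalized CPM with vehicle and 5.31 and 4.83 with 5D), Apol9b (-1.02, at 3.27, 6.80, 2.14 and 2.80) and Ly6e, a membrane protein that restricts coronaviruses (0.30, at 50.9, 42.0, 54.5 and 59.9). Apol9b is 98.5% identical to Apol9a over 1529 nt. Over all lists, with each gene once, 109 genes were tested, 8 were higher and 6 lower at an unadjusted p under 0.05 (3.5% and 3.84% of all genes), 0 and 1 at an adjusted p (0.0283% and 0.068%), and the median was 0.03.

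**Figure D5:**
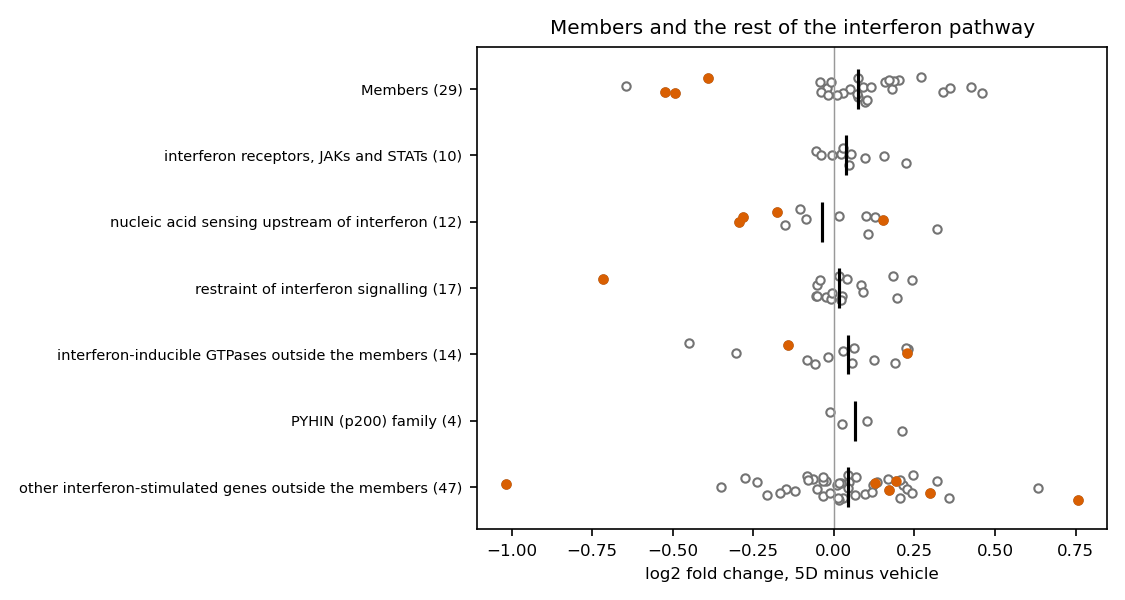
Log2 fold change, 5D minus vehicle, of genes with a mean of at least 20 counts, for the 29 members and for 6 lists of the rest of the pathway (number of genes in brackets); orange points have an unadjusted p under 0.05 in edgeR and black bars are medians, from -0.04 to 0.08. The orange points among the members are the Ifitm genes, and the orange point at -0.72 is Socs3.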

How the data were processed

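RNA of 2 vehicle and 2 5D libraries, grouped by the sample titles, was analysed. The authors made cDNA with a low-input kit, sequenced it on an Illumina NextSeq and used Partek Genomics Suite for alignment and quantification. The submitters' processing notes name CASAVA 1.8.2, STAR 2.6.1 and mm10, and the study's methods name the GENCODE M21 annotation. The labels give an overnight culture and nanograms of RNA, where the study's methods give a longer culture and picograms. The authors deposited estimated counts per gene, not normalized, of which 51.5% to 54.6% per library were whole. They were rounded here, although whole-number counts had been planned for. How shared reads were split, the strand setting and the effect of aligning BALB/c reads to the C57BL/6J genome are not given in the sources used here and were not tested.

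Upper quartile scaling was used, and a gene was kept when its normalized counts had a mean of 1 or more and a sum of 10 or more, as in 17651 of 22554 genes. The test was edgeR 4.0.16's quasi-likelihood test in R 4.3.3, two-sided and without covariates, and p-values were adjusted by Benjamini-Hochberg over all tested genes. Partek's Gene Set Analysis, the study's own test, was not used here. An exact permutation test of 2 against 2 libraries cannot go below 0.333. Within each group the libraries differed beyond counting error, with a chi-square per gene of 6.72 (vehicle) and 7.74 (5D) where counting alone gives 1. The members and lists were chosen with earlier results of these data known. Members with an unadjusted p under 0.05, the 5 highest per kilobase and the 5 with the largest absolute log2 fold change among those with at least 20 counts in each library are given with every library's value. Other members are given by means, counts or changes. List genes are named where their adjusted p was under 0.05, and otherwise up to 3 per list by smallest unadjusted p under 0.05. Socs1 and Tgtp1 were named after their values were seen. Some list genes are not reported singly. Gene positions are from GENCODE M21.

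The alternatives were TMM, DESeq2 size factors, the upper quartile recomputed after the filter, DESeq2 1.42.0's Wald test, limma-voom (limma 3.58.1), no filter, filterByExpr, the replicate number as a block, libraries thinned to the smallest total, and leaving out each library. Near-identical stretches of at least 150 nt at 95% identity were searched with BLAST 2.17.0. RefSeq promoters of 28 members were searched, and the last 30 bases of 33 of 35 member windows occurred in a transcript of the gene. The code was tested on simulated data. Python 3.11.15 and matplotlib 3.10.9 were used for the figures.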

Additional observations from a re-analysis of the deposited data

How the results depend on the processing

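Of 435 values of single members under the 13 alternatives, 401 kept their direction, 27 turned sign with a library left out and 7 otherwise, in 19 members in all, and 6 newly passed an adjusted p of 0.05, in Ifitm3, Ifitm2 and Gbp2, as given with those genes. None of the turned values was past that threshold. Genes called higher and lower at an adjusted p were 5 and 12, and 16 and 42 with DESeq2's Wald test, 9 and 23 with limma-voom, 11 and 35 without a filter, 1 and 1 after thinning, and from 3 to 73 and from 12 to 107 when 1 library was left out, the highest without vehicle replicate 1. At an unadjusted p they were 362 and 416 with DESeq2, and the higher ones ran from 389 to 1031 with a library left out. Members lower at an adjusted p were 1 with DESeq2 and 1 without a filter. Members at an unadjusted p were 0 higher and 2 lower (Ifitm2 and Ifitm3) with DESeq2, and 0 higher with filterByExpr. With a library left out, from 0 to 1 members were higher and from 0 to 2 lower at an adjusted p, and from 0 to 4 higher at an unadjusted one. The pathway lists then held from 0 to 1 higher and from 1 to 2 lower genes at an adjusted p, and from 4 to 14 higher and from 2 to 7 lower at an unadjusted p. The median over the members ran from -0.0262 (without 5D replicate 2) to 0.147 (without 5D replicate 1). Without length scaling, 2 of the 5 highest members stayed among the 5 highest. The causes were not tested.

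With the replicate number as a block, 9 higher and 32 lower genes passed the adjusted threshold, and 2 members were higher (Gbp2 and Mx1) and 4 lower at an unadjusted p, beside 649 and 707 of all genes. Only the number links these libraries, and the deviations of same-numbered libraries correlated at r = 0.0229 over 11182 genes. No member passed the adjusted threshold with the block.

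Signs turned after thinning for Isg20 (0.0169), Oas1a (-0.0185), Parp14 (0.00894) and Irf8 (-0.0043), for Irf8 with the upper quartile recomputed (-0.00305), for Trim25 with TMM (0.00075) and for Rsad2 with limma-voom (0.394). With a library left out, signs turned in Ifit2 from -0.165 to 0.308, Isg20 from -0.215 to 0.141, Oas1a from -0.0953 to 0.273, Oas3 from -0.419 to 0.562, Oasl1 from -0.111 to 1.03, Rsad2 from -2.41 to 0.159, Bst2 from -0.142 to 0.0625, Ddx58 from -0.0751 to 0.208, Zbp1 from -0.156 to 0.0695, Isg15 from -0.387 to 0.71, Usp18 from -0.0159 to 0.463, Trim25 from -0.21 to 0.161, Dtx3l from -0.00549 to 0.37, Parp14 from -0.197 to 0.139, Irf1 from -0.0262 to 0.117, Irf7 from -0.0757 to 0.122, Irf8 from -0.0401 to 0.0542, Ifi44 from -0.667 to 0.168 and Xaf1 from -0.06 to 0.299. Rsad2 and Ifi44 had at most 9 counts in a library, so their fitted values are not fold changes to rely on. In fits with 3 libraries the lone library was taken to vary as the pair did.

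The count of 2 libraries per group, with their depth, limits what could be seen. For members under a mean of 20 counts (6 of 35) counts are given in place of fitted fold changes, and a change of the size seen in Ifitm1 was not called after adjustment at its depth. A p above the threshold does not show that a member was the same in both groups. Protein levels were not analysed here.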
